A study of Mus musculus with 172 samples.

Results

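Mice of the BXD/RwwJ panel carry at Mlycd, on distal chromosome 8, either the allele of DBA/2J (D2) or that of C57BL/6J (B6), and the cortex and liver transcriptomes of the 2 kinds of carrier were compared before and after sleep deprivation. Alleles were read for 32 of the 33 lines from the haplotype colours of a plot in the study and are not among the deposited labels. By the study, these colours give the haplotype at a mapped marker linked to Mlycd expression. That marker lies before the start of the gene, so an allele at Mlycd here means the allele at the marker. That plot shows the response of Mlycd to sleep deprivation, which the study reported as down in B6 and up in D2 carriers. It was drawn from these same data, so the tests of that response here are no independent evidence. The alleles read gave 14 D2 lines (BXD44, BXD50, BXD51, BXD61, BXD64, BXD65, BXD65a, BXD67, BXD75, BXD79, BXD83, BXD87, BXD95 and BXD98) and 18 B6 lines. Line BXD65a is the one also numbered 97 in the labels, and BXD89 could not be read and was left out of the tests. The lines account for 128 of the 172 libraries of the series. Each line gave 4 libraries, from cerebral cortex and from liver of control mice left undisturbed (Ctr) and of mice kept awake by gentle handling for 6 h from light onset (SD), all killed at the same hour. A library is RNA pooled from young adult male mice of a line (from fewer mice, in some libraries perhaps a single one, in BXD79, BXD85 and BXD101), so that the line is the replicate and the spread between mice of a line cannot be seen. The lines are recombinant inbred strains bred from both parents, without transgenes or drug treatment. BXD48a, BXD65a and BXD73b are by name sublines of BXD48, BXD65 and BXD73, which are in the same group. The lines are therefore not all independent, and results without these sublines are given where a call was lost. Pools of the parental strains (2 each) and of the reciprocal F1 hybrids (2) served as reference values outside the tests.

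Mlycd encodes malonyl-CoA decarboxylase, which turns malonyl-CoA back into acetyl-CoA. Malonyl-CoA is the building block of fatty acid synthesis, and it also blocks carnitine palmitoyltransferase 1, the step that lets long-chain fatty acids into mitochondria to be oxidized. In recombinant inbred lines neighbouring genes are inherited together, so that lines which share an allele at Mlycd also tend to share those of the genes around it, over a stretch whose length differs between lines.

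In the mm9 build used by the authors, Mlycd lies on chromosome 8 at chr8:121918778-121935002, on the plus strand. The start of the gene is shown because the allele difference described here is that of this gene. RefSeq gives for its promoter (250 bases before to 50 after the start, GRCm38.p6, chr8:119394644-119394943, plus strand) the following reference sequence, in which capitals mark the letters CCAAT or their reverse complement ATTGG.
Mlycd promoter: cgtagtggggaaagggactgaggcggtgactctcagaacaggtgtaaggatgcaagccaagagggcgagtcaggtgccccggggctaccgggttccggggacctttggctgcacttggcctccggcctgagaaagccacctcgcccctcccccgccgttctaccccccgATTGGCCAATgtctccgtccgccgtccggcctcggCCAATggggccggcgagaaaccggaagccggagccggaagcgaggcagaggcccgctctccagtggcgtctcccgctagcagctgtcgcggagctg
CCAAT was searched on both strands and matched 3 times, in 2 adjoining copies and 1 nearer the start, and 37.4% of the 32851 mouse promoters of the same length hold it at least once. GGGCGG (held by 35.7%), TATAAA (13.6%) and CACGTG (7.15%), searched in the same way, were not found in this window. The sequence is that of the reference, a C57BL/6J genome, and the D2 sequence was not analysed here.

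Values are log2 CPM as deposited, read counts relative to the size of the library, on a log scale. Cortex libraries held 19025159 to 28998853 reads and liver libraries 4681101 to 8269401, with similar ranges in both groups. The 12 cortex markers were all listed in cortex and the 10 liver markers all in liver, and the summed level of each list overlapped between D2 and B6 lines in Ctr and in SD. A single gene of the lists of other cells passed a test, Aqp4 in liver, given with the genes of other chromosomes. The SD liver pool of BXD70 stood furthest from its group (median correlation with the other 31 pools of 0.943, highest of any line 0.970). BXD51, a D2 line by the plot, lay with the B6 lines, or beyond them, at Mlycd in all 4 of its libraries, so that results on Mlycd are given with and without it. The plot gives its allele at the marker, and its allele at the gene itself was not tested. Since BXD51 was singled out by its Mlycd values, smaller p values of Mlycd without it follow from that choice and are no added evidence.

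Mlycd was higher in the cortex of D2 lines. In RNA from whole tissue, fewer cells of a type and less RNA per cell cannot be told apart. In Ctr cortex, B6 lines ranged from 4.29 to 4.75 log2 CPM (median 4.44) and D2 lines from 4.44 to 5.47 (median 5.29), the lowest of them BXD51. The other 13 D2 lines began at 5.13 and lay above every B6 line. The mean difference was 0.80 on the log2 scale (SE 0.06, 1.74-fold, n = 14 and 18, limma adjusted p = 5.2e-10), and 0.86 without BXD51 (adjusted p = 8.3e-17). After SD the D2 lines ranged from 4.32 to 5.82 (median 5.68) and the B6 lines from 4.16 to 4.44 (median 4.33). The difference was then 1.27 (SE 0.09, 2.41-fold, adjusted p = 4.3e-12), or 1.37 without BXD51. Both D2 parental pools (5.49 and 5.44 in Ctr, 5.88 and 5.89 in SD) and the B6 pools (4.46 and 4.37, then 4.40 and 4.22) lay within or close to the range of the lines with their allele. The F1 pools (4.81 and 5.03 in Ctr, 5.10 and 5.21 in SD) fell between the parents. BXD89, with no allele read, had 5.54 in Ctr, above every D2 line, and 5.53 in SD, within the range of the D2 lines. Its level was thus not higher after SD.

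The response of cortical Mlycd to SD also differed. The study had reported a response of Mlycd that differed by allele from these same data, so the test here is no independent evidence. Its level was higher after SD in 13 of 14 D2 lines, by 0.20 to 0.64, and BXD51 changed by -0.12. It was lower after SD in 16 of 18 B6 lines, whose changes ran from -0.50 to 0.10. The change was 0.32 ± 0.17 (standard deviation, n = 14) in D2 and -0.15 ± 0.13 (n = 18) in B6 lines, a difference of 0.47 (SE 0.05, limma adjusted p = 4.2e-06), and of 0.51 without BXD51 (adjusted p = 3.7e-08). Fitted without the pairing of the Ctr and SD pools of a line, the same difference had SE 0.11 and an adjusted p = 1.00 (unadjusted 6.7e-05), so the call rests on the pairing. Expressed on the linear scale, Mlycd gained 10.4 CPM in D2 lines and lost 2.15 CPM in B6 lines (p = 2.0e-05 by a permutation test of both tails, which 100000 resamples cannot go below).

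In liver the direction was the opposite. Ctr levels were 6.69 to 7.06 (median 6.95) in B6 lines and 5.87 to 7.16 (median 5.96) in D2 lines. The highest D2 value is that of BXD51, above every B6 line, and the other 13 D2 lines did not exceed 6.16. The difference was -0.88 (SE 0.08, n = 14 and 18, limma adjusted p = 4.7e-09) and -0.97 without BXD51. After SD the B6 lines had 7.03 to 7.74 (median 7.11) and the D2 lines 5.72 to 7.26 (median 5.94), a difference of -1.16 (SE 0.10, adjusted p = 1.1e-09), or -1.26 without BXD51. D2 lines thus had 0.543 times the Mlycd of B6 lines in Ctr liver and 0.447 times after SD. D2 parental pools (5.87 and 5.91 in Ctr, 5.58 and 5.67 in SD) were lower than B6 pools (7.05 and 7.02, then 6.93 and 7.02), and F1 pools lay between them, at 6.60 to 6.89.

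Hepatic Mlycd was higher after SD in all 18 B6 lines, by 0.04 (BXD43) to 0.71 (BXD70), and in 6 of 14 D2 lines, whose changes ran from -0.24 to 0.22. The mean changes of 0.25 ± 0.16 (standard deviation, n = 18) and -0.03 ± 0.14 (n = 14) differed by -0.28 (SE 0.05), which did not pass over all genes (limma adjusted p = 0.098, unadjusted 1.1e-05, voom adjusted p = 0.14). It was the gene with the smallest p of the comparison. The adjusted p was 0.048 without BXD50, 0.0499 without BXD70 and up to 0.21 without other lines. On the linear scale the gain was 23.7 CPM in B6 lines against -0.69 CPM in D2 lines (p = 2.0e-05 by the same permutation test, again its lowest value). The 2 B6 parental pools were not higher after SD (6.93 and 7.02) than in Ctr (7.05 and 7.02).

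**Figure D1:**
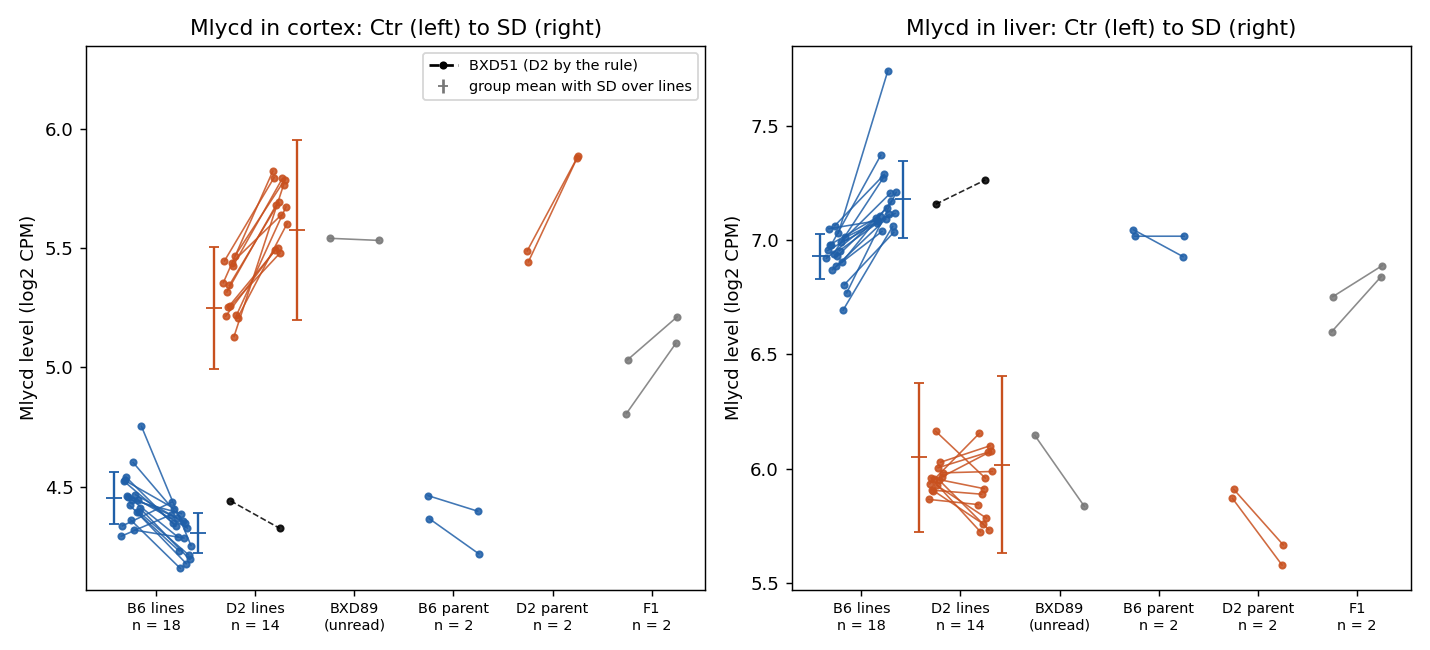
Mlycd in every line, parental and F1 pool, as log2 CPM in Ctr (left end of a line) and SD (right end), with the mean ± standard deviation of each group of lines, BXD51 included. In cortex (left panel) D2 lines sit above B6 lines and further above after SD, and in liver (right panel) they sit below, while BXD51 (dashed) follows the B6 lines in both.

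The opposite signs in the 2 tissues were tested on the liver minus cortex difference of each line, over the 12695 genes listed in both. For Ctr, the allele difference of Mlycd in liver less that in cortex was -1.68 (SE 0.14, limma adjusted p = 1e-09), and for the change it was -0.75 (SE 0.09, adjusted p = 6.4e-06). In this comparison 3 genes were called in Ctr (Mlycd, Snrnp25 and Rhbdf1, 0.0236% of those tested, with 5.71% at an unadjusted p under 0.05) and Mlycd alone in the change (0.00788%). Among the other genes near Mlycd, the smallest p values were those of Nudt7 (0.51, adjusted p = 0.076), Zfp612 (-0.40, 0.39), Maf (0.27, 0.62) and Kcnk1 (-1.12, 0.74) in Ctr, and of Gcsh, Zfp612, Wwox and Kcnk1 in the change, none of which passed.

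Across the transcriptome few genes separated the groups. In Ctr cortex 2 of 14896 genes were called (0.0134%), with 749 at an unadjusted p under 0.05 (5.03%). They were Mlycd and Cyb5b. In SD cortex 3 were called (0.0201%), these and Hbq1a, and in the change Mlycd alone (0.00671%). In Ctr liver 12 of 14107 were called (0.0851%), 4 higher (0.0284%) and 8 lower (0.0567%) in D2 lines. In SD liver 12 were also called (0.0851%), 5 higher (0.0354%) and 7 lower (0.0496%), and 7 of them were those called in Ctr. Single lines moved these counts, to 8 in SD cortex without BXD70, to 24 in SD liver without BXD50 and to 7 there without BXD44 or BXD83. In the liver change none was called by limma or by voom on recovered reads, although 2201 genes (15.6%) had an unadjusted p under 0.05, and that number fell to 458 without the pairing. In no comparison did all 14 D2 lines lie to one side of all 18 B6 lines for any gene (0%). With BXD51 set aside, which was singled out by its Mlycd values, Mlycd alone did so in 5 of the 6 comparisons (0.00671% of genes in cortex, 0.00709% in liver), and no gene did in the liver change.

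Of the 181 genes that start within 10 Mb of Mlycd, 172 were listed in cortex and 157 in liver. Mlycd was the only one of them called in cortex (1 of 172 in Ctr, SD and change, where 0.0134%, 0.0201% and 0.00671% of all genes were called). In liver 2 of 157 were called in Ctr, Mlycd and Chst4, and 3 in SD, with Maf added (0.0851% of all genes in each). At an unadjusted p under 0.05 stood 6.98% of the neighbours in Ctr cortex against 5.03% of all genes, and 8.92% against 5.64% in Ctr liver. The shares were 12.2% against 6.65% in SD cortex and 10.8% against 8.05% in SD liver. In the change they were 4.65% against 4.00% in cortex and 17.2% against 15.6% in liver. The median absolute difference in Ctr was 0.030 in cortex and 0.050 in liver for the neighbours and 0.035 and 0.053 for all genes, and after SD it was 0.038 and 0.062 for the neighbours and 0.034 and 0.074 for all genes. None of the 7 other genes that start within 0.25 Mb of Mlycd was called in any of the 6 comparisons (lowest limma adjusted p = 0.22). Of their 39 values 6 had an unadjusted p under 0.05, where 4.00% (cortex change) to 15.6% (liver change) of all genes did. These were, on the log2 scale, those of Hsbp1, a regulator of the heat shock factor, in SD cortex (-0.05) and in the liver change (-0.12), and of Osgin1, an oxidative stress gene, in SD liver (-0.21) and in the liver change (-0.22). The others were those of Taf1c, of the RNA polymerase I machinery, in Ctr liver (-0.24) and of Necab2, a calcium-binding protein, in the liver change (-0.90, with a mean level in Ctr below 0 log2 CPM in both groups).

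Chst4, a sulfotransferase that modifies carbohydrates, starts 9.37 Mb before Mlycd and was lower in the liver of D2 lines. It is at the limit of detection, with 1 to 19 reads in Ctr in B6 lines (median 7) and 0 to 5 in D2 lines (median 2). The difference was -1.49 in Ctr (SE 0.28, limma adjusted p = 0.012) and -1.50 in SD (SE 0.31, adjusted p = 0.040), and leaving out any of 16 lines lifted the SD value to an adjusted p of up to 0.091. The Ctr call was lost without the sublines BXD48a, BXD65a and BXD73b (adjusted p = 0.068) and without BXD79, BXD85 and BXD101 (0.055), and the SD call in both of these (0.12 each) and by voom (0.073). Maf, a leucine zipper transcription factor 3.71 Mb before Mlycd, was higher in SD liver of D2 lines. Its values were 5.27 to 6.04 (median 5.76) in B6 and 5.75 to 6.30 (median 6.03) in D2 lines, and 7 of 14 D2 lines lay above all B6 lines. The difference was 0.31 (SE 0.07, adjusted p = 0.042) against 0.25 in Ctr (adjusted p = 0.14), and the SD call was lost with any of 21 lines left out (adjusted p up to 0.11), without a variance trend (0.061), with median centring (0.079), without BXD79, BXD85 and BXD101 (0.10) and without the sublines (0.20). Nudt7, a peroxisomal hydrolase of coenzyme A, did not pass in cortex, with differences of -0.41 in Ctr (adjusted p = 0.11, but 0.040 with the parents added) and -0.62 in SD (adjusted p = 0.099), and the D2 parental pools (1.29 and 1.04 in Ctr) were below the B6 pools (1.57 and 1.62).

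Further towards the centromere, 12.2 to 12.8 Mb from Mlycd, 4 genes called in a tissue lie within a single short stretch, beyond the window for neighbours. Cdh1, which encodes E-cadherin, the adhesion protein of epithelial cells, starts 12.8 Mb before Mlycd. In Ctr liver it had 7.02 to 8.14 (median 7.80) in B6 and 6.30 to 7.76 (median 7.06) in D2 lines. The difference was -0.69 (SE 0.11, limma adjusted p = 0.0011), and -0.73 in SD (SE 0.13, adjusted p = 0.0079). Sntb2, a syntrophin that anchors proteins at the membrane, was higher in D2 lines by 0.61 in Ctr liver (SE 0.10, adjusted p = 0.0037) and by 0.72 in SD liver (adjusted p = 0.019). Tmed6, of the p24 family of secretory cargo receptors, had a median of 1 read in Ctr liver of B6 lines and of 7.5 in D2 lines, and its difference of 2.10 (adjusted p = 0.012) was 1.67 in SD (adjusted p = 0.12). In cortex, Cyb5b, the cytochrome b5 of the outer mitochondrial membrane, was lower in D2 lines, at 7.27 to 7.54 (median 7.37) against 7.36 to 7.59 (median 7.55) in Ctr. That difference was -0.16 (SE 0.02, adjusted p = 0.0019) in Ctr and -0.14 (SE 0.02, adjusted p = 0.020) in SD, where it was lost once the 3 lines represented by fewer mice (BXD79, BXD85, BXD101) were set aside (adjusted p = 0.066). In liver Cyb5b did not pass (0.04, SE 0.04, adjusted p = 0.91). In Ctr the parental pools had the sign of the lines at each of these 4 genes.

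Another chromosome 8 transcript, the long noncoding RNA 3010033K07Rik, has no position in the mm9 annotation used here. It was lower in the liver of D2 lines. No read was seen in either condition in 10 of 14 D2 lines and in 1 of 18 B6 lines (BXD55), while the medians of B6 lines were 22.5 reads in Ctr and 14.5 in SD. D2 lines BXD95 and BXD98, at 1.62 and 1.35 log2 CPM in Ctr, had levels of the B6 lines. The fitted difference was -3.74 in Ctr (SE 0.51, limma adjusted p = 1.4e-04) and -3.12 in SD (adjusted p = 0.0010), and its size depends on the prior count of the log scale. Kifc3, a kinesin motor 24.3 Mb before Mlycd, was lower by 0.26 in Ctr liver of D2 lines (adjusted p = 0.015) but by 0.10 in SD liver (adjusted p = 0.71), and in Ctr the D2 parental pools (6.62 and 6.70) were higher than the B6 pools (6.40 and 6.27). The Kifc3 call was lost with the parents added (adjusted p = 0.12) or without the sublines (0.065).

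**Figure D2:**
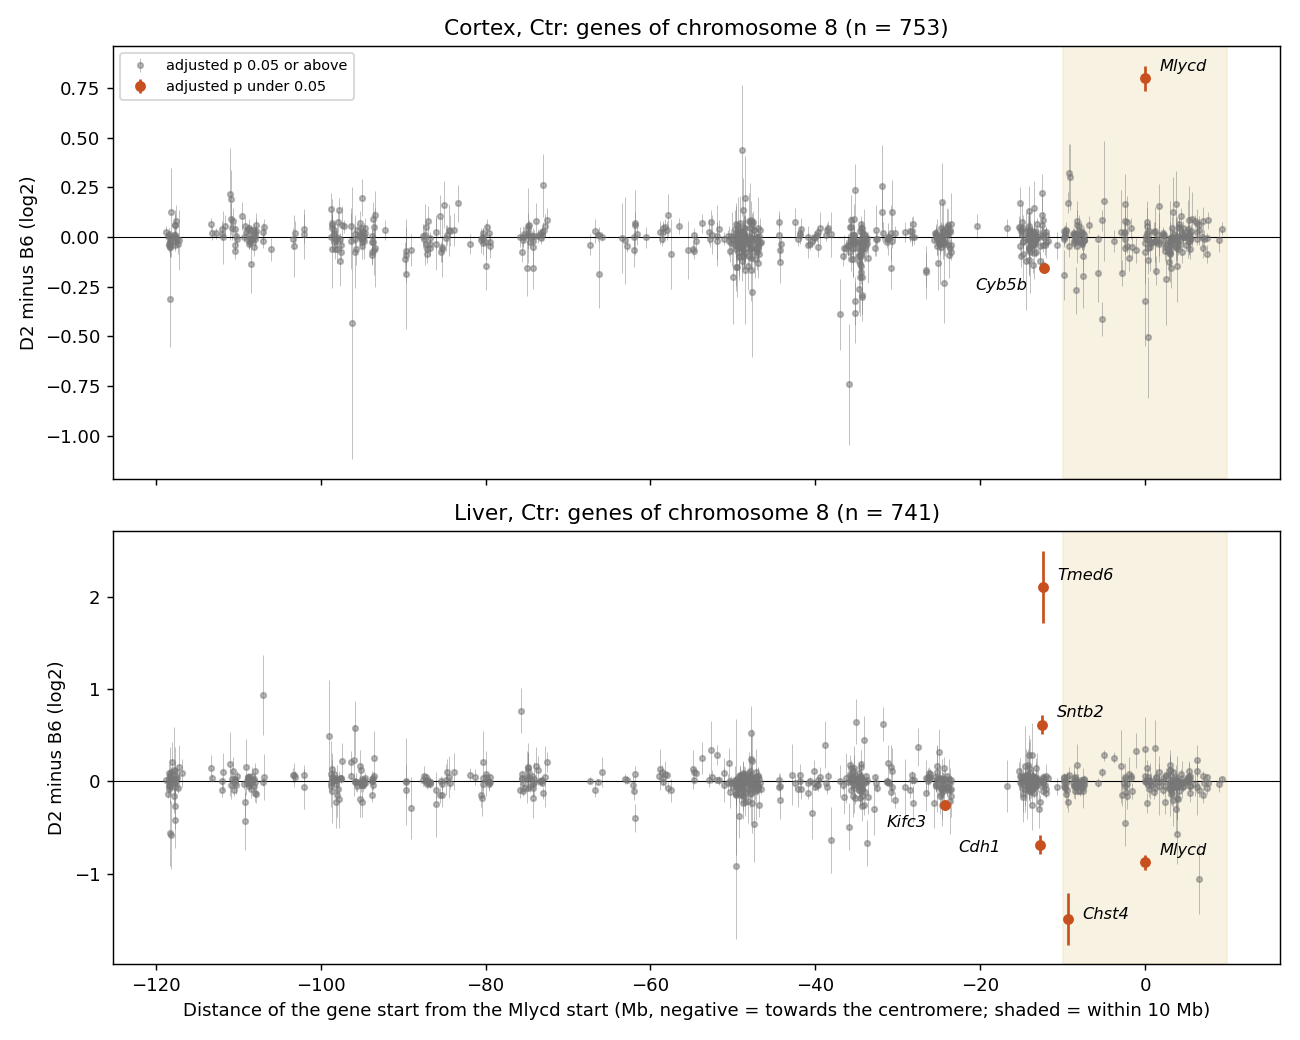
Difference between D2 and B6 lines (log2, with SE) in Ctr for each chromosome 8 gene with an mm9 position against its distance from Mlycd in Mb. Called genes are orange: Mlycd and Cyb5b in cortex, and Mlycd, Chst4, Tmed6, Sntb2, Cdh1 and Kifc3 in liver. The transcript 3010033K07Rik, also called in liver, has no such position and is not shown.

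Genes that differ between the parents did not all differ between the groups. In Ctr, 10 of 172 neighbours in cortex (5.81%) and 21 of 157 in liver (13.4%) differed between the parental means by at least 0.5 on the log2 scale, against 10.5% and 19.9% of all genes, and the lines had the parental sign at 6 and 13 of them. Wwox, an oxidoreductase gene 4.96 Mb before Mlycd, is an example chosen after its values were seen. Its cortical level, averaged over Ctr and SD, formed 2 separate ranges, 3.80 to 4.19 in 17 lines and 5.17 to 6.10 in 15 lines. BXD51 (6.09 in Ctr) was in the higher and BXD95 (4.08) in the lower. The lower range held 10 B6 and 7 D2 lines and the higher range 8 B6 and 7 D2 lines. The D2 parental pools (5.33 and 5.32 in Ctr) exceeded the B6 pools (4.21 and 4.12), yet the D2 and B6 lines differed by 0.18 (SE 0.30, limma adjusted p = 0.98). In Ctr liver Wwox differed by 0.28 between the groups (SE 0.06, adjusted p = 0.075), which passed with median centring (0.036), without the sublines (0.039) and with the parents added (0.025). Galns, a lysosomal sulfatase 3.18 Mb beyond Mlycd, and the sulfotransferase Sult5a1, 3.75 Mb beyond it, also chosen after their values were seen, were higher in liver of the D2 parent by 0.83 and 0.76 in Ctr, and differed by -0.09 and -0.05 between the groups of lines.

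How far each line carried the pattern of its group along the chromosome was described at the 9 called chromosome 8 genes, 10 combinations of gene and tissue, by whether its level was nearer to the mean of the other D2 or of the other B6 lines. Since these genes were chosen for differing between the groups, the counts describe the lines and test nothing. At Mlycd all 18 B6 lines and 13 of 14 D2 lines were nearer to their own group in both tissues. BXD51 was nearer to the B6 lines at Mlycd only and to the D2 lines at the other 8 genes. BXD95 showed the reverse, with the D2 lines at Mlycd in both tissues and at Kifc3 and with the B6 lines at the other 7. BXD55, a B6 line, was nearer to the D2 lines in 6 of 10 combinations and BXD73b in 4. Of the 32 lines, 15 were with their own group in all 10. BXD89 was nearer to the D2 lines in 7 of 10, including Mlycd in both tissues.

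**Figure D3:**
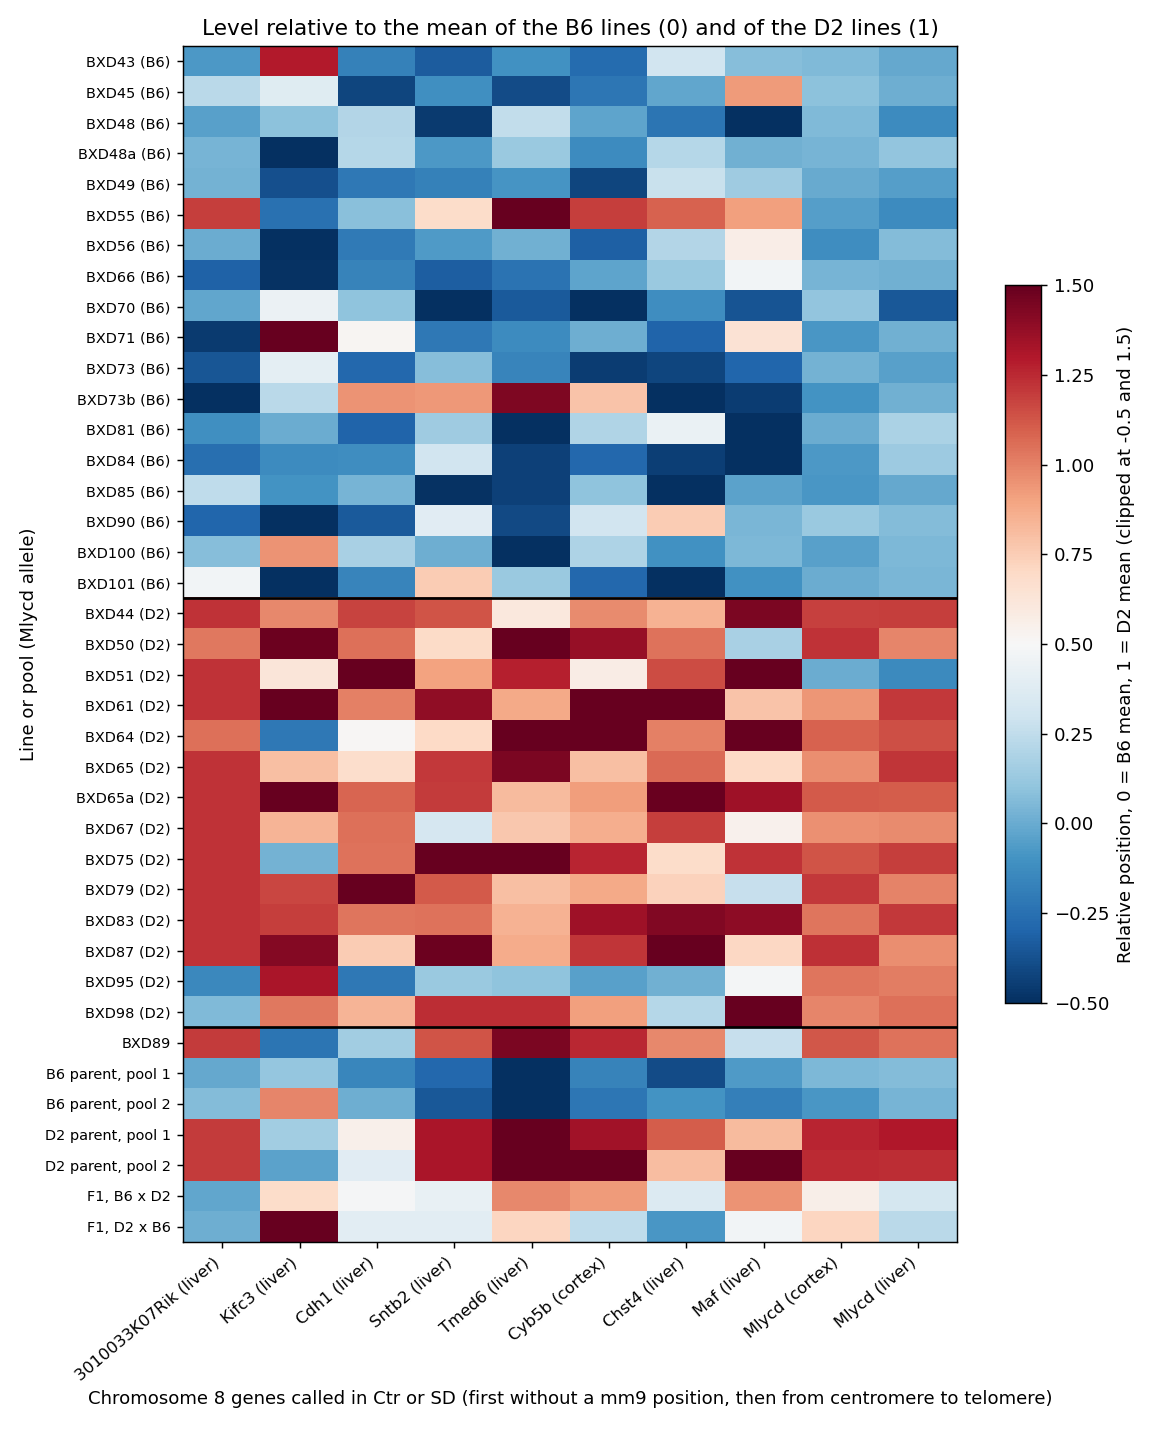
Level of each line and pool (rows) at the called chromosome 8 genes (columns), set to 0 at the mean of the other B6 lines and 1 at that of the other D2 lines. The rows of BXD51 (with B6 at Mlycd, with D2 elsewhere) and BXD95 (with D2 at Mlycd, with B6 at every other gene but Kifc3) depart from their group in opposite ways.

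On other chromosomes, a cluster on chromosome 11 held 4 of the called genes. Snrnp25 (chr11:32105415-32108984), a protein of the minor spliceosome, was lower in the liver of D2 lines at Mlycd, at 2.99 to 4.01 (median 3.52) in Ctr against 3.21 to 5.88 (median 5.60) in B6 lines. The difference was -1.51 in Ctr (SE 0.26, limma adjusted p = 0.0037) and -1.77 in SD (SE 0.27, adjusted p = 0.0010). Rhbdf1 (chr11:32109585-32122300), an inactive rhomboid protease involved in growth factor release, differed by -1.50 in Ctr (SE 0.27, adjusted p = 0.0088) and -1.45 in SD (adjusted p = 0.023). Both genes had 2 separate levels in liver. All 14 D2 lines and 6 of the 18 B6 lines had the low level, and the other 12 B6 lines the high one. The parental strains were the other way round: Snrnp25 in Ctr was 5.43 and 5.78 in the D2 pools and 3.12 and 3.65 in the B6 pools. D2 lines at Mlycd therefore had the level of the B6 parent at these genes, and with the parental pools added neither passed in Ctr (adjusted p = 0.073 and 0.092). By voom neither passed in Ctr either (adjusted p = 0.10 and 0.18). In SD Rhbdf1 did not pass by voom or with the parents added (adjusted p = 0.11 each), without BXD79, BXD85 and BXD101 (0.12), or without BXD44 or BXD83 (up to 0.059). The neighbouring DNA repair gene Mpg differed by -0.35 in Ctr liver (adjusted p = 0.022, lost with the parents added at 0.092 and without BXD79, BXD85 and BXD101 at 0.10), and the theta globin gene Hbq1a by -1.24 in SD cortex (adjusted p = 0.026), where it had 1 to 8 reads in D2 and 3 to 30 in B6 lines. The Hbq1a call was lost with any of 9 lines left out (adjusted p up to 0.057) and by voom (adjusted p = 0.12). It was also lost without the sublines (0.12), with the parents added (0.10) and without BXD79, BXD85 and BXD101 (0.066). In cortex Snrnp25 (-0.34, adjusted p = 0.41) and Rhbdf1 (-0.14, adjusted p = 0.97) did not pass in Ctr, and the difference between liver and cortex passed for both (-1.17 and -1.35, adjusted p = 0.013). With the parents added neither of these passed (adjusted p = 0.13 and 0.12), nor did that of Rhbdf1 without BXD79, BXD85 and BXD101 (0.077).

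**Figure D4:**
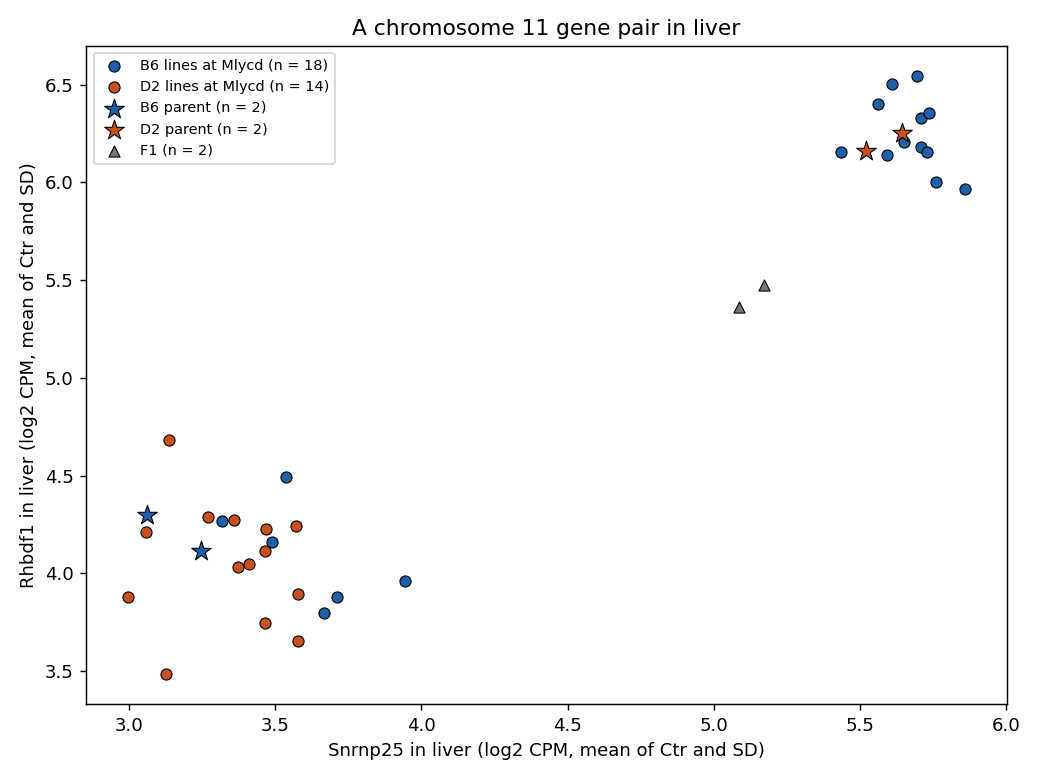
Snrnp25 against Rhbdf1 in liver (log2 CPM, mean of Ctr and SD), 1 point per line or pool. All 14 D2 lines at Mlycd and 6 B6 lines sit with the B6 parent at the lower left, and 12 B6 lines with the D2 parent at the upper right.

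Elsewhere in SD liver, Pde7b, a phosphodiesterase that degrades cyclic AMP, was higher in D2 lines, at 4.12 to 5.34 (median 4.89) against 2.50 to 4.76 (median 3.94). Its difference was 1.01 (SE 0.17, limma adjusted p = 0.0025), 11 of 14 D2 lines lay above all B6 lines, and in Ctr it was 0.54 (adjusted p = 0.12). The transcript 2410127L17Rik of chromosome 19 was lower by 0.84 (adjusted p = 0.0077). Prune2 (1.64, adjusted p = 0.022), on the same chromosome, and Fam124a (0.54, adjusted p = 0.042) were higher. Prune2 was lost without the sublines (adjusted p = 0.12) and without BXD44 or BXD83 (up to 0.059). Fam124a was lost with any of 22 lines left out (adjusted p up to 0.10), without a variance trend (0.063), with median centring (0.062), without BXD79, BXD85 and BXD101 (0.15) and without the sublines (0.16). In Ctr liver, the water channel Aqp4 was higher in D2 lines by 1.12 (SE 0.22, adjusted p = 0.023), at 5.37 to 6.66 against 3.55 to 6.50, and by 0.96 in SD (adjusted p = 0.077). The Ctr call was lost without BXD79, BXD85 and BXD101 (adjusted p = 0.10), without the sublines (0.090) and without any of BXD44, BXD61, BXD64, BXD65a and BXD83 (up to 0.061). Aqp4 is also in the list of cortex markers. Of that list 7 genes were listed in liver, Aqp4 alone of them with an unadjusted p under 0.05, and their summed level in Ctr was 6.60 to 7.60 (median 6.94) in B6 and 6.996 to 7.60 (median 7.35) in D2 lines. The part of brain-type RNA in this difference was not tested. G0s2, an inhibitor of the lipase that breaks down stored triglycerides, was higher in Ctr liver by 0.40 (SE 0.08, adjusted p = 0.032) and did not pass in SD (0.14, adjusted p = 0.71). The Ctr call was lost with any of 17 lines left out (adjusted p up to 0.088, 0.065 without BXD51), without the sublines (0.13), without BXD79, BXD85 and BXD101 (0.088), with the parents added (0.058) and without a variance trend (0.054). G0s2, Aqp4, Tmed6, Kifc3, Mpg, Prune2 and Fam124a are called genes that were named after their values were seen.

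Around Mlycd in metabolism, the other 44 listed genes of malonyl-CoA turnover and fatty acid oxidation contained no called gene in any comparison, against 0.0134% of all genes in Ctr cortex and 0.0851% in Ctr liver. In Ctr cortex 3 of the 44 had an unadjusted p under 0.05, against 5.03% of all genes (Eci1 and Ppargc1a among them) and their differences ran from -0.40 to 0.11 with a median of 0.0047 (all genes 0.0019). In Ctr liver 6 of 44 did, against 5.64% of all genes (Acsf3, Etfdh, Ppara, Prkaa1, Sirt3 and Sirt5), with a median difference of 0.05 (all genes -0.00015). Acsf3, which makes malonyl-CoA in mitochondria, is itself a neighbour, 3.38 Mb beyond Mlycd, and was 0.10 higher in D2 lines in Ctr liver (SE 0.03, adjusted p = 0.47).

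In the liver change, 19 of the 44 had an unadjusted p under 0.05, against 15.6% of all genes tested, and none passed (lowest adjusted p = 0.22). All 19 had the lower change in D2 lines, by 0.09 to 0.15. Their mean changes lay between 0.05 and 0.19 in B6 lines and between -0.05 and 0.08 in D2 lines. They include 16 of the 17 enzymes of beta-oxidation, with as examples chosen after their values were seen the electron carrier subunit Etfa (-0.14, adjusted p = 0.22), the medium-chain dehydrogenase Acadm (-0.10, adjusted p = 0.22) and the trifunctional protein subunit Hadha (-0.09, adjusted p = 0.23). The fatty acid synthesis genes Fasn (0.14, SE 0.11) and Acaca (0.16, SE 0.13) had differences of the other sign, within 1.5 times their SE. The median of the 44 was -0.08, against 0.02 for all genes. With parental strains added 8 of the 44 remained under 0.05, and without the pairing 2. The 10 liver markers had a median of -0.13 in the same comparison, 6 of them at an unadjusted p under 0.05, and their part in the values of the list was not tested.

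**Figure D5:**
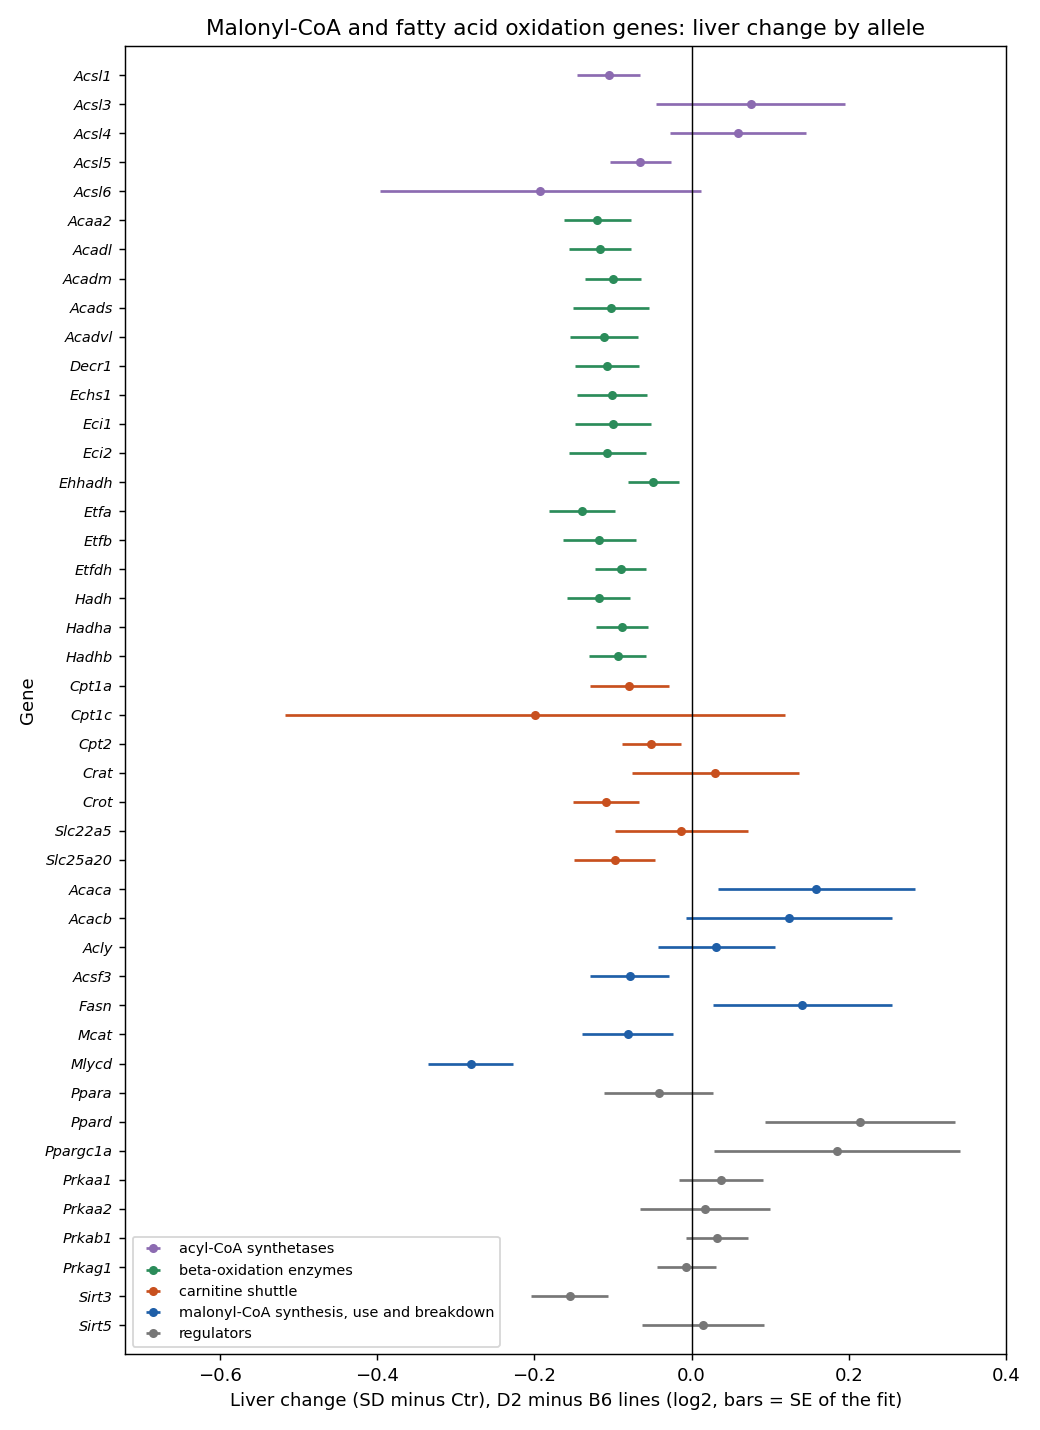
Difference between D2 and B6 lines in the liver change (SD minus Ctr, log2, with SE) for Mlycd and other genes of malonyl-CoA turnover and fatty acid oxidation, coloured by role. Beta-oxidation enzymes cluster near -0.1, Mlycd is lowest at -0.28, and none passed over all genes.

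The 14 genes of the response to sleep deprivation, all listed in cortex and 12 of them in liver, held no called gene. Their median difference in the cortical change was 0.01 (range -0.08 to 0.25, none at an unadjusted p under 0.05, where all genes give 4%). In liver the median was 0.11, and 2 of 12 had an unadjusted p under 0.05, where 15.6% of all genes did.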

How the data were processed

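Poly(A) RNA of pooled mice of each line was sequenced on a stranded, single-end protocol. The authors mapped reads with STAR to mm9, counted genes with HTSeq, left out genes with a low mean count, and deposited log2 CPM per gene and library after TMM scaling in edgeR, separately for each tissue and condition; versions are not given in the sources used here. Whole reads could be recovered from all values within 0.02 of a read and gave the depths. No column of per-sample values was left unused for lack of a label (0 columns).

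D2 (n = 14) and B6 (n = 18) lines were compared by limma 3.58.1 (R 4.3.3) on these log2 CPM values, with a variance trend and Benjamini-Hochberg adjustment over all genes listed in the tissue; called means an adjusted p under 0.05. Change is SD minus Ctr of the same line. The line pairs its pools by the labels: deviations of the Ctr and SD pools of a line from their group means correlated at a median of 0.61 in cortex and 0.49 in liver (lowest 0.29 and 0.31), against -0.03 and -0.02 between lines. P-values set the difference between the groups against the spread between lines. For the change and between tissues, that spread is of the differences within each line. The fit of levels was also run on simulated normal log2 values of independent lines, drawn from Ctr means and spreads. Related sublines and the pairing of pools were not simulated, so the fits were not tested for these. Alternatives were no trend, median centring, a minimum mean log2 CPM of 0, leaving out each line, BXD51, the lines with fewer mice or the sublines, adding the parents, voom on recovered reads, no pairing, and linear CPM.

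Genes were named by a rule: Mlycd; the 10 neighbours within 10 Mb, and the 5 genes beyond them, with the smallest adjusted p among those called in each comparison; the 5 neighbours with the smallest adjusted p between tissues; and called members of the fatty acid oxidation list. A gene of that list is counted but not reported here by name or in the plot. All other genes were named after their values were seen. The members, lists and tests were chosen with earlier results of these data known. Gene positions are from an mm9 annotation; 373 of the 16308 listed genes have a chromosome only and 19 none. Lists of choroid plexus, pituitary, erythroid, B cell and exocrine pancreas genes held no called gene in any comparison.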

Additional observations from a re-analysis of the deposited data

Results flagged for a closer look

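In these results the difference between D2 and B6 lines at Mlycd differed between conditions or tissues by a test of that difference. The locus was taken from a response of Mlycd that the study had reported from these same data, so the test of that response is no independent evidence. For Mlycd in cortex, the response to SD was 0.47 higher in D2 than in B6 lines on the log2 scale (SE 0.05, limma adjusted p = 4.2e-06, above 0 in 13 of 14 D2 lines and in 2 of 18 B6 lines). The allele difference of Mlycd in liver less that in cortex was -1.68 in Ctr (SE 0.14, adjusted p = 1.0e-09) and -0.75 in the change (SE 0.09, adjusted p = 6.4e-06). For the chromosome 11 genes Rhbdf1 and Snrnp25 the corresponding Ctr values were -1.35 (SE 0.24) and -1.17 (SE 0.20), both with an adjusted p = 0.013, and neither passed with the parental strains added (adjusted p = 0.12 and 0.13).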

How the results depend on the processing

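The Ctr liver difference of Sult5a1 changed sign without BXD79, BXD85 and BXD101 (0.0025) and without BXD98 (0.016, the highest with a line left out, the lowest being -0.10 without BXD71), and no other difference given with its value here or in the report did under the alternatives run for it. With one line left out at a time, the number of called genes was 2 to 4 in Ctr cortex (4 without BXD100, BXD48 or BXD66), 2 to 8 in SD cortex (8 without BXD70, 6 without BXD66, 5 without BXD51 or BXD95) and 1 to 2 in the cortical change (2 without BXD45). In liver it was 10 to 14 in Ctr, 7 to 24 in SD (24 without BXD50, 7 without BXD44 or BXD83) and 0 to 2 in the change (1 without BXD50 or BXD67, 2 without BXD70). Between tissues it was 3 to 6 in Ctr (5 without BXD48 or BXD66, 6 without BXD70 or BXD98) and 1 to 2 in the change (2 without BXD70). SD cortex gave 5 called genes without BXD51 and 1 without BXD79, BXD85 and BXD101. Adding the parents left 1 gene, Mlycd, called between tissues in Ctr. Without the replicate block, that is without the pairing of Ctr and SD pools by line, no gene was called in the cortical change (0 against 1), and Mlycd then had an adjusted p = 1.00. The cause of these moves was not tested. For the genes given with values, 502 values under the other alternatives kept their side of the threshold, 43 lost it (Hbq1a, Cyb5b, Chst4, Snrnp25, Rhbdf1, Maf, Aqp4, G0s2, Kifc3, Mpg, Fam124a, Prune2 and the unpaired Mlycd) and 7 were counted as gaining it (Wwox in Ctr liver 3 times, Nudt7 in Ctr cortex, Aqp4 and Tmed6 in SD liver, and the liver change of Mlycd on the linear scale). The last of these is the permutation p of Mlycd alone, not adjusted over all genes. It is therefore no pass over all genes. The calls of Mlycd levels in both tissues held under every alternative. Chst4, Tmed6, Hbq1a and 3010033K07Rik rest on few reads in liver or cortex, so that the size of their differences is poorly fixed.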
